A study of Mus musculus with 17 samples.

Results

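The genes described here are 7 genes that set whether a T cell leaves a tissue or stays in it. They are the sphingosine-1-phosphate receptors S1pr1, S1pr4 and S1pr5, the transcription factors Klf2 and Klf3, the homing receptor Ccr7 and the retention molecule Cd69. They were taken by symbol from a table of 27240 genes, all 7 were found, and all 7 were among the 20137 genes with enough reads to be tested. They were chosen by function, with earlier results of these data known. Bulk RNA sequencing had been done on CD8 T cells sorted by flow cytometry from lung tumours of mice. KO mice lacked PD-L1, which binds the inhibitory receptor PD-1 on T cells, in the endothelium, and WT mice did not carry that loss. Tissue was either core-enriched, which meant nodules visible to the eye, or rim-enriched, which meant nodules within the parenchyma. There were 6 libraries of KO core, 5 of WT core, 4 of KO rim and 2 of WT rim. The sources used here do not name the promoter or Cre line behind the endothelial loss, the strain, the age or the tumour model. One WT core library is a pool, of a size not given here.

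Sphingosine-1-phosphate, or S1P, is a lipid that is abundant in blood and lymph and scarce within tissues, and T cells that carry the receptor S1PR1 follow it out of the tissue. KLF2 drives transcription of S1pr1 in T cells, while CD69 binds the S1PR1 protein and takes it off the cell surface, so that activated and tissue-resident T cells are held in place. CCR7 guides T cells into lymph vessels and lymph nodes towards its chemokine ligands. The values below are transcript levels only, and the surface proteins were not measured.

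Across the 17 libraries the total count ranged from 21767045 to 32566456. The KO lacks PD-L1 in another cell type, so no transcript level here checks the genotype label. The labels do not tie each library to its own animal, and the p-values therefore rest on a spread between libraries that may be partly technical. None of 9 T cell identity markers, Cd8a and the CD3 genes among them, was at 0 in any library, and their summed level was 4940 to 9620 CPM, or counts per 1000000 counts of the library. Markers of other cell types were also present, with 9 dendritic cell markers summing to 1955 CPM in KO core F318, 1805 CPM in WT core H876 and 1402 CPM in WT rim H877, against at most 709 CPM in any other library. The sum of 12 macrophage and monocyte markers ran from 587 CPM in KO rim F86 to 7080 CPM in KO rim O. In KO rim O the T cell identity markers summed to 7846 CPM. In bulk RNA a lower share of cells that express a gene and less RNA of it per cell cannot be told apart.

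Differences between the sites stood out among these genes, with core below rim. Averaged over the genotypes, 4 of the 7 genes were lower in core libraries, namely S1pr1, S1pr4, Klf3 and Ccr7, where 3.06% of all 20137 genes tested were called lower (adjusted p under 0.05, edgeR's quasi-likelihood test with Benjamini-Hochberg adjustment). No member was called higher, against 3.31% of the genes tested. All 7 estimates were negative, from -1.54 to -0.24 on the log2 scale with a median of -1.15, beside a median of 0.05 over all genes tested.

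**Figure D1:**
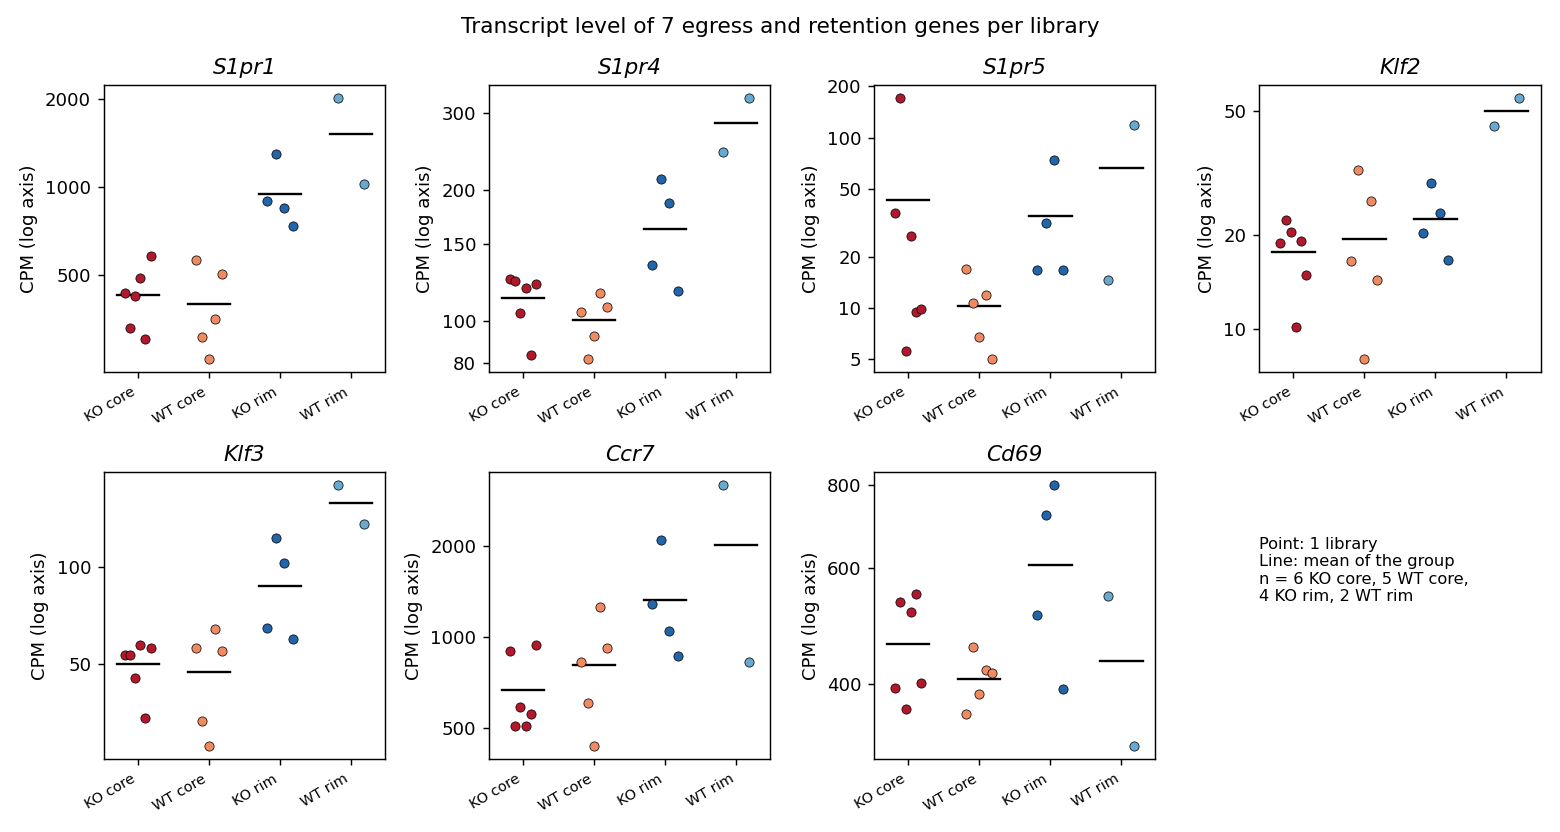
Transcript level in CPM (log axes) of the 7 genes in each of the 17 libraries, with 1 point per library and a line at the group mean (6 KO core, 5 WT core, 4 KO rim and 2 WT rim). S1pr1 lies between 258 and 582 CPM in all 11 core libraries and between 733 and 2011 CPM in all 6 rim libraries.

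S1pr1, the receptor that T cells use to leave tissue, lies on chromosome 3 of GRCm38 (chr3:115710433-115715072, minus strand). Its level in KO core was 302 CPM at the lowest, 430 CPM at the median and 582 CPM at the highest. In WT core it was 564 CPM in F164, 308 CPM in H719, 258 CPM in H873, 354 CPM in H876 and 502 CPM in the pool. In KO rim it was 896 CPM in F15, 1296 CPM in F322, 850 CPM in F86 and 733 CPM in O, and in WT rim 2011 CPM (H874) and 1026 CPM (H877). Every core library was below every rim library, whichever the genotype, which held for 0.169% of the genes tested and for no other member. The log2 fold change averaged over the genotypes was -1.54 ± 0.198 (SE; adjusted p = 0.00129 by edgeR's quasi-likelihood test). It was -1.94 ± 0.307 within WT (adjusted p = 0.00492), where without WT rim H874 it was -1.37 and did not pass (adjusted p = 0.131). Within KO it was -1.15 ± 0.249, with a 95% interval of -1.67 to -0.62, which did not pass over all genes (edgeR adjusted p = 0.572).

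S1pr4 (chr10:81497747-81500132, minus strand) encodes an S1P receptor found mainly on lymphoid and other blood cells. It had 83.5 CPM at the lowest, 121 CPM at the median and 125 CPM at the highest in KO core. The 5 WT core libraries had 105 CPM in F164, 81.8 CPM in H719, 92.4 CPM in H873, 116 CPM in H876 and 108 CPM in the pool. The rim libraries had 134 CPM in F15, 212 CPM in F322, 187 CPM in F86 and 118 CPM in O of KO, and 244 CPM in WT H874 and 325 CPM in WT H877. The core libraries formed a narrow band, with SDs of 16.3 CPM in KO core and 13.6 CPM in WT core. Both WT rim libraries were above all others, while KO rim O fell inside the core band. The averaged fold change was -1.01 ± 0.132 (SE, log2; adjusted p = 0.00129 by edgeR's quasi-likelihood test). Within WT it was -1.50 ± 0.205 (adjusted p = 0.00253) and within KO -0.53 ± 0.166 (adjusted p = 0.62).

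S1pr5 (chr9:21242912-21248443, minus strand) encodes the S1P receptor that natural killer cells use to leave lymph nodes and bone marrow. In KO core it had 36 CPM in F219, 171 CPM in F318, 5.59 CPM in F319, 26.5 CPM in F322, 9.46 CPM in F86 and 9.83 CPM in O. In WT core it had 16.9 CPM in F164, 10.7 CPM in H719, 6.71 CPM in H873, 11.9 CPM in H876 and 4.99 CPM in the pool. The rim libraries had 16.6 CPM in F15, 31.4 CPM in F322, 73.9 CPM in F86 and 16.7 CPM in O of KO, and 14.7 CPM in WT H874 and 118 CPM in WT H877. F318 thus stood far above the other KO core libraries, and F86 was the highest of KO rim. The 2 WT rim libraries were far apart, and the groups overlapped. No site difference of S1pr5 passed the test. Averaged over the genotypes it was -1.19 ± 0.659 (SE, log2; edgeR adjusted p = 0.317), and without KO core F318 it was -1.85 and passed (adjusted p = 0.0385). The estimates within the genotypes had opposite signs, at 0.31 ± 0.842 within KO (edgeR adjusted p = 0.979) and -2.70 ± 1.01 within WT (adjusted p = 0.163).

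The 3 libraries highest in S1pr5 were among the 4 highest in Siglech, a marker of plasmacytoid dendritic cells. Siglech had 1432 CPM in KO core F318, 848 CPM in WT rim H877 and 509 CPM in KO rim F86. Other libraries departed from this. WT core H876 had 1174 CPM of Siglech and 11.9 CPM of S1pr5, and WT core F164 had 257 CPM of Siglech and 16.9 CPM of S1pr5. KO core F219 had 234 CPM of Siglech and 36 CPM of S1pr5, whereas KO rim F322, with 31.4 CPM of S1pr5, had 3.77 CPM of Siglech. Markers of natural killer cells summed to 1281 CPM in KO core F318 and 1134 CPM in WT core H876, and to between 132 and 710 CPM in the other libraries. The part of dendritic and natural killer cells in the S1pr5 values was not tested.

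**Figure D2:**
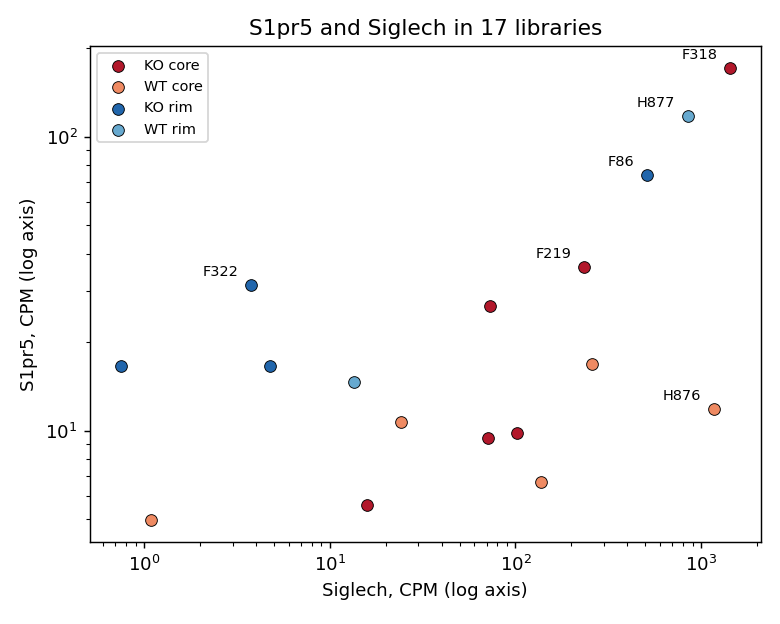
Level of S1pr5 against the level of Siglech, a plasmacytoid dendritic cell marker, in the 17 libraries (both in CPM on log axes, 1 point per library, coloured by group). KO core F318, WT rim H877 and KO rim F86 are high in both, while WT core H876 has 1174 CPM of Siglech and 11.9 CPM of S1pr5, and KO rim F322 has 3.77 CPM of Siglech and 31.4 CPM of S1pr5.

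Klf2 (chr8:72319033-72321656, plus strand), the factor that maintains S1pr1 transcription in T cells, was a low transcript. KO core had 10.2 CPM at the lowest, 19.1 CPM at the median and 22.5 CPM at the highest. WT core had 16.6 CPM in F164, 32.5 CPM in H719, 8.01 CPM in H873, 25.8 CPM in H876 and 14.4 CPM in the pool. KO rim had 20.4 CPM in F15, 29.4 CPM in F322, 23.7 CPM in F86 and 16.7 CPM in O, and WT rim had 44.7 CPM (H874) and 55.2 CPM (H877). Only the WT rim pair stood apart, above all 15 other libraries. The averaged site difference was -0.86 ± 0.251 (SE, log2), just short of the threshold (edgeR adjusted p = 0.0527), and it passed under DESeq2 (adjusted p = 0.0145). Within WT it was -1.36 ± 0.389 (edgeR adjusted p = 0.0632) and within KO -0.35 ± 0.314 (adjusted p = 0.866).

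Klf3 (chr5:64803388-64832901, plus strand) encodes a repressor of the same family that binds the same short sequence. It had 33.8 CPM at the lowest, 53.2 CPM at the median and 57.0 CPM at the highest in KO core. WT core had 55.9 CPM in F164, 33.1 CPM in H719, 27.7 CPM in H873, 63.9 CPM in H876 and 54.8 CPM in the pool. In the rim it had 64.5 CPM in F15, 123 CPM in F322, 103 CPM in F86 and 59.5 CPM in O of KO, and 180 CPM in WT H874 and 136 CPM in WT H877. Within each genotype the core libraries lay below the rim libraries, and across genotypes WT core H876 exceeded KO rim O. The averaged fold change was -1.28 ± 0.198 (SE, log2; adjusted p = 0.00262 by edgeR's quasi-likelihood test). It was -1.75 ± 0.306 within WT (adjusted p = 0.00743), or -1.54 without WT rim H874 (adjusted p = 0.115), and -0.81 ± 0.248 within KO (edgeR adjusted p = 0.62). An unnamed antisense gene model shares 404 exon bases with Klf3, and another shares 51 with S1pr5. Whether counting used strand is not given in the sources used here, so those reads cannot be told apart.

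Members of this factor family bind the short motif CACCC, and S1pr4 and Klf3 had the closest profiles of any member pair over the libraries. The promoters of these 2 genes are therefore shown, as 250 bases before and 50 after the RefSeq transcription start in GRCm38.p6, read 5′ to 3′ on the gene's strand. Capitals mark CACCC or its reverse complement GGGTG.
S1pr4 (chr10:81500088-81500387, minus strand): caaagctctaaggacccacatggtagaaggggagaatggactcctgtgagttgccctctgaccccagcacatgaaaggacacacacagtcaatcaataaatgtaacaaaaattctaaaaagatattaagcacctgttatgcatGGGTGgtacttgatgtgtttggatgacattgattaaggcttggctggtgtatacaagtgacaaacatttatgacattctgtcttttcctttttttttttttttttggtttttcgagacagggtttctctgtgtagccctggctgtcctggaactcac
Klf3 (chr5:64803271-64803570, plus strand): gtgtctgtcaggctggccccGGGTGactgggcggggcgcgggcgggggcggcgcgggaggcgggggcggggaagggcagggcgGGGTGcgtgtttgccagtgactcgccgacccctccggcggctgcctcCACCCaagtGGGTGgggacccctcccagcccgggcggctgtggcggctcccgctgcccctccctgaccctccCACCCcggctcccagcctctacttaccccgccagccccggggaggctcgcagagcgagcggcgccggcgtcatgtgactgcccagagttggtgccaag
The S1pr4 window held 1 match, 107 bases before the start, in sequence with 41.0% G and C. The Klf3 window held 5 matches, from 230 to 48 bases before the start, with 76.7% G and C. Of 32851 mouse promoter windows in the RefSeq table, 57.5% held the motif on either strand and 1.02% held 5 or more, and the median G and C content was 52.7%. Windows were also at hand for S1pr5, with 2 matches, and Klf2, with 1 match, but not for S1pr1, Ccr7 and Cd69. The motifs GTAAACA, bound by FOXO factors, and TGANTCA, bound by AP-1, had no match in these 4 windows and were in 3.65% and 7.81% of all windows. A match describes the letters only.

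Ccr7 (chr11:99144196-99155077, minus strand), the lymph node homing receptor, had 508 CPM at the lowest, 572 CPM at the median and 940 CPM at the highest in KO core. WT core had 826 CPM in F164, 606 CPM in H719, 437 CPM in H873, 1259 CPM in H876 and 919 CPM in the pool. KO rim had 1285 CPM in F15, 2088 CPM in F322, 1048 CPM in F86 and 863 CPM in O, and WT rim had 3186 CPM (H874) and 830 CPM (H877). The 2 WT rim libraries were thus far apart, H877 lay within the range of WT core, and the core and rim libraries overlapped in both genotypes. The averaged fold change was -1.15 ± 0.282 (SE, log2; adjusted p = 0.0237 by edgeR's quasi-likelihood test). This call rested on single rim libraries, being -0.51 without WT rim H874 (adjusted p = 0.478) and -0.98 without KO rim F322 (adjusted p = 0.0587). The difference was -1.31 ± 0.441 within WT (edgeR adjusted p = 0.113) and -0.99 ± 0.353 within KO (adjusted p = 0.62).

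Cd69 (chr6:129267325-129275436, minus strand) encodes the lectin that opposes S1PR1 at the cell surface and is an early marker of activation. Its level was 366 CPM at the lowest, 457 CPM at the median and 548 CPM at the highest in KO core. It was 360 CPM in F164, 454 CPM in H719, 386 CPM in H873, 420 CPM in H876 and 415 CPM in the pool of WT core. In KO rim it was 508 CPM in F15, 720 CPM in F322, 802 CPM in F86 and 393 CPM in O, and in WT rim 543 CPM (H874) and 321.6 CPM (H877). KO rim F322 and F86 were the highest, and the groups overlapped. The site difference averaged -0.24 ± 0.156 (SE, log2), with a 95% interval of -0.57 to 0.09, and did not pass (edgeR adjusted p = 0.4). Core libraries thus had lower S1pr1 with no called difference in the transcript of its antagonist.

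Within WT alone, 3 of the 7 genes were called lower in core than in rim (S1pr1, S1pr4 and Klf3), where 1.76% of the genes tested were called lower. With Klf2 they were the 4 members whose core and rim libraries did not overlap, which in that direction held for 9.68% of the genes tested. Within KO no gene was called in either direction, so the background was 0 of 20137 genes or 0%. At an unadjusted p under 0.05 the edgeR test held 4 members there (S1pr1, S1pr4, Klf3 and Ccr7) and 7.95% of the genes tested, and DESeq2 called 35 genes, with S1pr1 among them (-1.14, adjusted p = 0.0175). S1pr1 and Klf3 did not overlap between KO core and KO rim, against 0.8% of the genes tested. The site differences of the genotypes were compared directly in the interaction test below.

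Identifiers F322, F86 and O occur in both KO core and KO rim, although the labels do not say that an identifier is an animal. S1pr1 was 488 CPM in core and 1296 CPM in rim under F322, 302 CPM in core and 850 CPM in rim under F86, and 582 CPM in core and 733 CPM in rim under O. Klf3 was 57.0 CPM in core and 123 CPM in rim under F322, 33.8 CPM in core and 103 CPM in rim under F86, and 55.9 CPM in core and 59.5 CPM in rim under O. Under O, S1pr4 was 122 CPM in core and 118 CPM in rim, Ccr7 was 940 CPM in core and 863 CPM in rim, and S1pr5 was 9.83 CPM in core and 16.7 CPM in rim. Core was below rim under all 3 identifiers for S1pr1, S1pr5, Klf2 and Klf3. The share of all genes tested with that pattern was not counted, so it is a description only. For S1pr1 and Klf3 the gap was smallest under O.

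**Figure D3:**
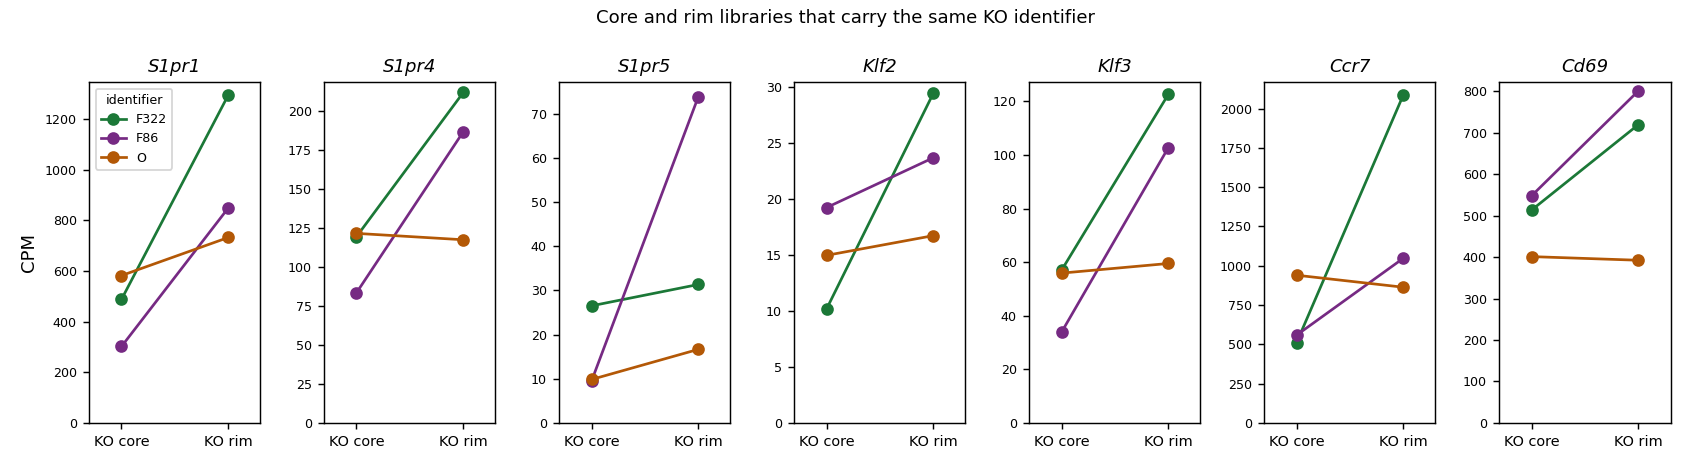
CPM (linear axes from 0) of the 7 genes in KO core and KO rim, with a line for each of the identifiers F322, F86 and O that occur in both. S1pr1, S1pr5, Klf2 and Klf3 are lower in core for all 3 lines, and S1pr4, Ccr7 and Cd69 are not lower in core for O.

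The genotypes differed less clearly than the sites. Y-linked genes summed to 449 CPM in KO core F322, 511 in KO core O, 503 in KO rim F322 and 480 in KO rim O. In WT they summed to 103 CPM in the core pool and to 0 CPM in both rim libraries. Sex is therefore partly confounded with genotype in core and in rim. Between KO core and WT core no gene of the 20137 was called by edgeR's quasi-likelihood test (0%), 6.18% had an unadjusted p under 0.05, and DESeq2 called 9 genes, none of them a member. S1pr5 was the 1 member with an unadjusted p under 0.05, at 2.07 ± 0.833 (SE, log2; edgeR adjusted p = 0.796). Without KO core F318 it was 0.78 (adjusted p = 1). The other 6 genes had estimates from -0.28 for Ccr7 to 0.17 for Cd69. The 95% interval was -0.40 to 0.61 for S1pr1 and -0.17 to 0.50 for S1pr4, which are the ranges these libraries allow. All 7 genes overlapped between the genotypes in core, where 0.174% of the genes tested lay wholly lower in KO core.

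Between KO rim and WT rim, 6 of the 7 estimates were negative, and none passed over all genes, of which 0 of 20137 (0%) were called and 7.35% had an unadjusted p under 0.05. Of the members 3 had an unadjusted p under 0.05. S1pr4 averaged 163 ± 44.2 CPM in KO rim and 285 ± 57.3 CPM in WT rim (SD, n = 4 and 2). That is -0.81 ± 0.219 on the log2 scale (SE; adjusted p = 0.322 by edgeR), and DESeq2, which called 268 genes, called it (adjusted p = 0.0481). Klf2 averaged 22.5 ± 5.39 CPM in KO rim and 49.98 ± 7.40 CPM in WT rim, or -1.15 ± 0.41 (edgeR adjusted p = 0.531). Klf3 averaged 87.4 ± 30.5 CPM in KO rim and 158 ± 30.9 CPM in WT rim, or -0.85 ± 0.328 (edgeR adjusted p = 0.59). These 3 were also the members whose KO rim and WT rim libraries did not overlap, which 6.81% of the genes tested did in that direction with only 2 WT rim libraries. S1pr1 was -0.69 ± 0.331 (edgeR adjusted p = 0.694), Ccr7 -0.60 ± 0.47 and Cd69 0.49 ± 0.264. The comparisons share the WT rim libraries with the site comparison within WT, so they are not independent.

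The interaction asks whether the KO against WT difference was the same in core and in rim. For 6 of the 7 genes it was positive, and no gene was called (0 of 20137 genes, 0%, by edgeR's quasi-likelihood test). At an unadjusted p under 0.05 stood 3 members and 7.68% of the genes tested, and DESeq2 called 161 genes, none of them a member. S1pr4 had the smallest p among the members, at 0.97 ± 0.271 (SE, log2; edgeR adjusted p = 0.425, 95% interval 0.40 to 1.55). The other two of these were S1pr5, with the largest estimate of the members at 3.01 ± 1.34 (edgeR adjusted p = 0.629), and Klf3 at 0.93 ± 0.406 (adjusted p = 0.617). Without WT rim H877 and KO core F318 the S1pr5 estimate was -0.46. It was 0.79 ± 0.409 for S1pr1 and 1.01 ± 0.511 for Klf2, whose unadjusted p was above 0.05. A larger site difference in WT than in KO was therefore not shown for any member.

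**Figure D4:**
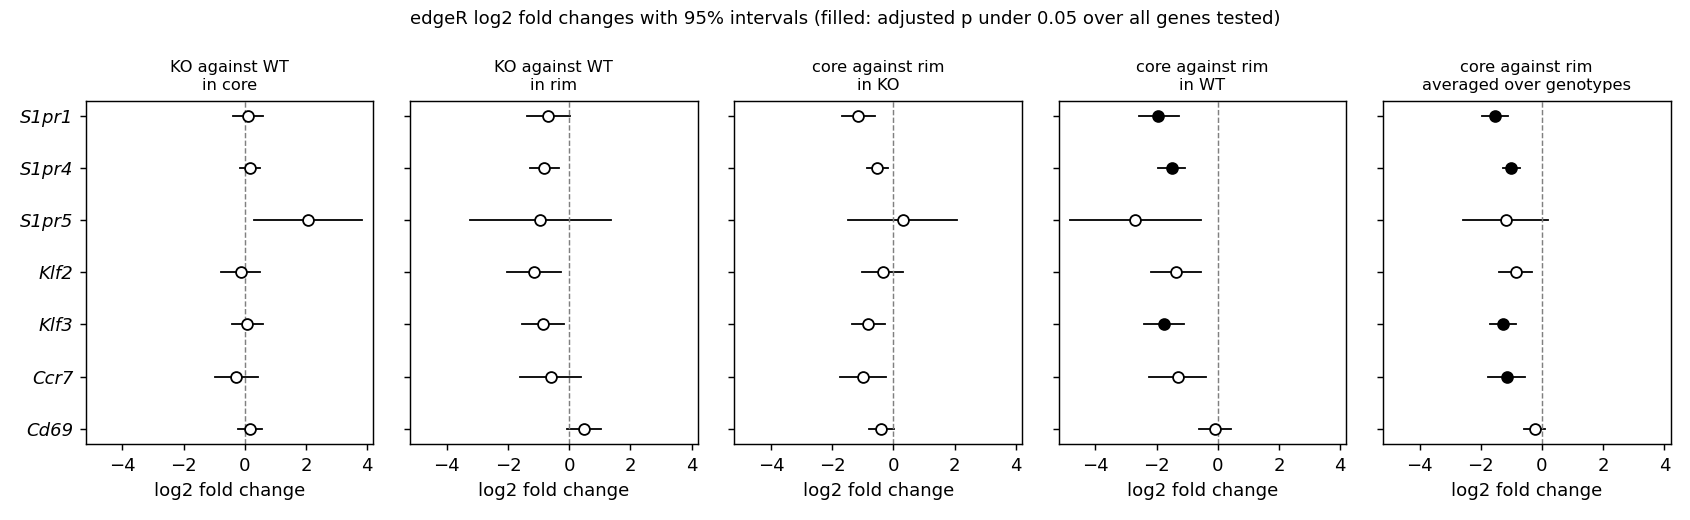
Log2 fold changes from edgeR (circles) with 95% intervals (bars) for the 7 genes in 5 comparisons, KO against WT in core and in rim, and core against rim in KO, in WT and averaged over the genotypes. Filled circles passed an adjusted p of 0.05 over all 20137 genes, which are S1pr1, S1pr4 and Klf3 within WT and these 3 with Ccr7 in the average.

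Levels were also divided by the joined length of all annotated exons of each gene, which can exceed that of the transcript expressed. This length was 3046 bases for S1pr1, 1978 for Ccr7, 6509 for Cd69 and 11243 for Klf3, so places between genes depend on it. On this scale the 7 genes kept much the same order in every library. Ccr7 was first and S1pr1 second in all 17 libraries. Ccr7 averaged 337 ± 100.1 CPM per kb in KO core, 409 ± 159 in WT core, 668 ± 273 in KO rim and 1015 ± 842 in WT rim (SD). S1pr1 averaged 140 ± 33.9 CPM per kb in KO core, 130 ± 42.9 in WT core, 310 ± 80.4 in KO rim and 499 ± 229 in WT rim. Their ranges did not overlap in KO core, WT core or KO rim, and they did in WT rim. Cd69 took the third place in all libraries other than the 2 of WT rim, where S1pr4 took it. Klf2, Klf3 and S1pr5 filled the last places, other than in KO core F318, where S1pr5 stood above S1pr4, with S1pr5 varying from 1.996 CPM per kb in the WT core pool to 68.2 CPM per kb in KO core F318.

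The members did not all vary together within groups. With the group means removed, log2 CPM over the 17 libraries correlated at r = 0.79 between S1pr4 and Klf3, 0.756 between S1pr1 and Ccr7, 0.728 between S1pr1 and Klf3 and 0.676 between Klf3 and Ccr7. It was 0.162 between S1pr1 and Cd69 and -0.0452 between S1pr1 and Klf2, a factor known to act on S1pr1. These are descriptions over libraries in which all genes of a library share its cell mixture and depth. Klf2 had between 210 and 1177 reads per library, against 6759 to 45542 for S1pr1.

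The transcripts most like each member over the 17 libraries were sought among 9800 others with a mean of at least 5 CPM, by Pearson r of log2 CPM. For S1pr1 they were Gramd3 (0.954), Stk38, a kinase, and Foxp1, a factor that keeps T cells quiescent (both 0.944). Gramd3 had 585 ± 228 CPM in KO core, 454 ± 123 in WT core, 1186 ± 360 in KO rim and 1601 ± 774 in WT rim (SD). For S1pr4 they were Klf3 (0.942), the acetyl-CoA synthetase gene Acss2 (0.933) and Rasa3, which restrains Ras and Rap signalling (0.932). For Klf3 they were Ripor2 (0.95), an inhibitor of RhoA, the ubiquitin ligase gene Marchf7 (0.947) and Cyth1 (0.944), which acts on integrin adhesion. For Ccr7 they were Adi1 (0.912), Ambra1 (0.895) and Il6st (0.892), the shared receptor chain of the interleukin-6 family. For Klf2 they were Ugcg (0.869), Mef2d (0.857) and Sbk1 (0.825), and for Cd69 Dnajb1 (0.815), a heat shock gene, Rnf2 (0.814) and Med26 (0.789). S1pr5 was most like Hhex (0.91), Serp1 (0.876) and Zfp658 (0.87). Group means were not removed here, so these likenesses include the site difference.

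Genes around S1P itself were not called in any comparison. Among 10 genes of its synthesis, transport and breakdown, Sgpl1, the lyase that degrades S1P, had 199 ± 38.5 CPM in KO core, 219.2 ± 54.8 in WT core, 210 ± 27.2 in KO rim and 230 ± 89.3 in WT rim (SD). The kinase gene Sphk2 had 36.8 ± 3.90 CPM in KO core, 37.3 ± 5.08 in WT core, 40.8 ± 6.07 in KO rim and 29.5 ± 12.7 in WT rim. Sphk1 and the exporter gene Spns2 were at most 2.57 and 4.22 CPM in any library. The receptor gene S1pr2 averaged 22.0 CPM in KO core, 17.3 in WT core, 20.8 in KO rim and 23.1 in WT rim, and S1pr3 was at most 6.99 CPM. Within the S1P receptor family the called differences were thus those of S1pr1 and S1pr4.

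Of 22 signalling genes below these receptors, 1 was higher and 1 lower in core, averaged over the genotypes. Over all 20137 genes tested 3.31% were called higher and 3.06% lower, so 1 of 22 in each direction is near that share. Rgs16, which turns off G protein signals, was higher at 1.41 ± 0.317 (SE, log2; edgeR adjusted p = 0.0155), with 375 ± 159 CPM in KO core, 453 ± 243 in WT core, 407 ± 107 in KO rim and 58.9 ± 0.228 in WT rim (SD). Its low level was thus in WT rim, and KO core was not above KO rim. Arhgap45 was lower at -0.50 ± 0.106 (edgeR adjusted p = 0.0122). Rgs1, which dampens chemokine and S1P receptor signals and is abundant in resident T cells, had 746 ± 202 CPM in KO core, 795 ± 308 in WT core, 676 ± 99.0 in KO rim and 318.2 ± 178 in WT rim, and its difference of 0.73 ± 0.229 did not pass (edgeR adjusted p = 0.0685). The median of this list was -0.05.

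Among 15 other KLF and SP family genes tested, 3 were lower and none higher in core, averaged over the genotypes. Over all genes tested 3.06% were called lower. The list median was -0.46 within WT, -0.19 within KO and -0.28 on average. Klf13 was -0.60 ± 0.106 (SE, log2; edgeR adjusted p = 0.00483), Klf7 -0.84 ± 0.199 (adjusted p = 0.0196) and Klf6 -0.44 ± 0.12 (adjusted p = 0.0362). Klf6 was the most abundant of these, at 949 ± 90.2 CPM in KO core, 883 ± 139 in WT core, 1277 ± 351 in KO rim and 1214 ± 34.3 in WT rim (SD). Klf4 did not pass (edgeR adjusted p = 0.775). Of 12 genes that act on Klf2, 1 was lower, Pik3ip1, an inhibitor of phosphoinositide 3-kinase that is high in resting T cells (-1.28 ± 0.303, edgeR adjusted p = 0.0202). Foxo1, which activates Klf2 in T cells, was at 38.3 ± 7.31 CPM in KO core, 33.6 ± 8.43 in WT core, 42.2 ± 14.6 in KO rim and 72.5 ± 17.4 in WT rim. It was lower in core within WT (-1.11 ± 0.284, edgeR adjusted p = 0.0398), which held in 2 of the 7 fits that left out 1 WT library and not without WT rim H874 (-0.84, adjusted p = 0.413), and it did not pass on average (adjusted p = 0.0528).

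Of 12 circulation and homing genes tested, averaged over the genotypes, 3 were lower and none higher in core. Over all genes tested 3.06% were called lower. The list median was -1.03 within WT, -0.14 within KO, where 5 estimates were positive, and -0.63 on average. Lef1, a factor of naive and memory T cells, was -1.36 ± 0.3 (SE, log2; edgeR adjusted p = 0.0144), the interleukin-7 receptor gene Il7r -1.24 ± 0.282 (adjusted p = 0.0164), and Itgb7, an integrin chain, -0.65 ± 0.164 (adjusted p = 0.0262). The list of 19 tissue residency genes had a median of 0.66, or 0.82 within WT and 0.24 within KO. It includes Cdh1, which is also on the list of lung epithelial markers below. Of the 19 genes, 3 were higher and none lower in core, where 3.31% of the genes tested were called higher. They were Cd101 (1.14 ± 0.21, edgeR adjusted p = 0.00569), Qpct (1.03 ± 0.242, adjusted p = 0.0196) and Rbpj, the Notch pathway factor (0.89 ± 0.25, adjusted p = 0.0443). The better known residency genes Itgae, Cxcr6 and Zfp683 did not pass, at 0.25 ± 0.202, 0.84 ± 0.361 and 0.90 ± 0.307. Cd101 had 85.9 ± 19.4 CPM in KO core, 95.3 ± 32.0 in WT core, 69.6 ± 14.7 in KO rim and 24.3 ± 4.98 in WT rim.

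Of 14 genes that respond early to the T cell receptor, as Cd69 does, 1 was higher and 2 lower in core. Averaged over the genotypes, 3.31% of all genes tested were called higher and 3.06% lower. Tnfrsf9, which encodes the costimulator 4-1BB, was higher at 2.15 ± 0.29 (SE, log2; edgeR adjusted p = 0.0015), with 330 ± 92.4 CPM in KO core, 399 ± 202 in WT core, 204 ± 56.9 in KO rim and 32.7 ± 3.63 in WT rim (SD). Ier2, an immediate early gene, was lower at -0.99 ± 0.107 (edgeR adjusted p = 0.000753) and Junb, an AP-1 subunit, at -0.55 ± 0.109 (adjusted p = 0.00854). None of the 6 genes that neighbour Cd69 in the lectin cluster was called. In the averaged comparison Ier2, Tnfrsf9 and Cd101 passed in all 17 fits that left out 1 library, Rbpj in 4 and Klf6 in 8, and the other called list genes in 14 to 16. For those others the calls ended without WT rim H874, WT rim H877 or KO rim F322. Without WT rim H874 they included Lef1 (-0.68, adjusted p = 0.322), Il7r (-0.76, adjusted p = 0.254) and Rgs16 (1.41, adjusted p = 0.125). In female libraries alone 9 of the 15 called list genes no longer passed, with adjusted p from 0.0553 for Il7r to 0.22 for Rbpj. They included Cd101 (adjusted p = 0.0858), Lef1 (adjusted p = 0.0874), Qpct, Klf6, Klf7, Pik3ip1 and Rgs16. Rgs16, Klf6 and Rbpj also did not pass in limma voom with quality weights, nor Itgb7 and Rbpj with the edgeR replicate block, nor Rgs16 and Rbpj with the limma replicate block.

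**Figure D5:**
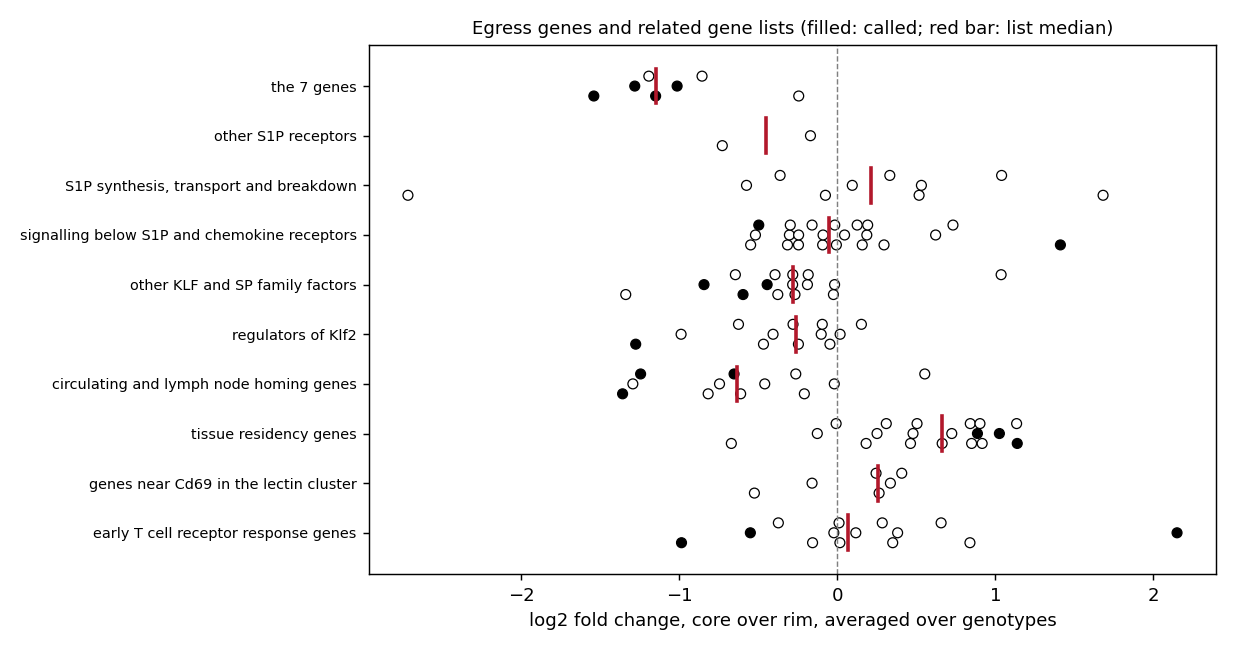
Log2 fold change from edgeR, core over rim averaged over the genotypes, for the 7 genes and for 9 lists of related genes, with 1 circle per gene, filled where the adjusted p was under 0.05 over all genes, and a red bar at the list median. The 7 genes have a median of -1.15, the circulation and homing genes -0.63 and the tissue residency genes 0.66. In the same order these medians are -1.50, -1.03 and 0.82 within WT and -0.53, -0.14 and 0.24 within KO (not drawn).

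B cells also express S1pr1, Klf2 and Ccr7, and B cell markers were lower in core in the same direction. The 11 B cell markers summed to between 36.3 and 256 CPM in KO core, 136 and 555 CPM in WT core, 104 and 574 CPM in KO rim and 456 and 634 CPM in WT rim. Of them 10 had negative averaged site differences and none was called. Their part in the member values was not tested in a fit. Endothelial cells express S1pr1 strongly, and the 12 endothelial markers summed to between 69.6 and 215 CPM in KO core, 56.8 and 206 CPM in WT core, 89.1 and 137 CPM in KO rim and 129 and 216 CPM in WT rim, with none called. Most of this sum was Pecam1, which averaged 78.4 CPM in KO core, 75.2 in WT core, 83.2 in KO rim and 142.7 in WT rim. The next highest, Kdr, averaged at most 19.6 CPM in a group (KO core), and Cdh5 at most 5.81 CPM (WT core). Of the macrophage markers C1qb and C1qc were higher in core, at 182 ± 76.2 CPM in KO core, 247 ± 107 in WT core, 165 ± 152 in KO rim and 22.6 ± 8.92 in WT rim for C1qb (SD; 1.80 ± 0.484, log2 with SE, edgeR adjusted p = 0.0362). The 12 macrophage and monocyte markers summed to between 1670 and 5090 CPM in KO core and 1780 and 5620 CPM in WT core. In KO rim the sum was between 587 and 7080 CPM, and in WT rim between 1090 and 1850 CPM. Within KO, 6 of these markers had positive site differences and 6 negative. Of 10 lung epithelial markers tested 9 had positive averaged differences, with a median of 1.3, and Epcam was called higher in core (2.27 ± 0.644, log2 with SE, edgeR adjusted p = 0.0455) at 2.79 CPM in KO core, 1.71 CPM in WT core, 1.72 CPM in KO rim and 0.114 CPM in WT rim. The lung epithelial markers summed to between 225 and 1020 CPM in KO core, 116 and 645 CPM in WT core, 66.2 and 809 CPM in KO rim and 42.2 and 167 CPM in WT rim. Within this sum Cdh1 averaged 191.5 CPM in KO core, 165.5 in WT core, 103.4 in KO rim and 63.6 in WT rim. Cdh1 is also on the list of tissue residency genes above, so it is counted in both. Of the 9 T cell identity markers, Cd247 alone was called, lower in core (-0.42 ± 0.119, log2 with SE, edgeR adjusted p = 0.0469). As a list they were not lower in core, with 5 positive and 4 negative averaged estimates and a median of 0.08. The part of the other cell types in the member values was not tested.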

How the data were processed

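The file deposited by the authors holds unnormalized counts of reads by gene symbol, 1 column per library for 17 libraries. The tools cutadapt 3.2, HISAT2 and Bowtie2 2.4.5, featureCounts and Subread 2.0.0, and the builds GRCm38 and mm10 appear in the submitters' processing notes, and the labels' protocols name the RNeasy Micro Kit and the TruSeq RNA Library Prep Kit. The handling of multi-mapping reads is not given here.

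From these counts, log2 fold changes and p-values came from edgeR 4.0.16 in R 4.3.3 (filterByExpr, TMM scaling, 1 robust quasi-likelihood fit of 4 groups, two-sided F test, Benjamini-Hochberg over 20137 genes, called at 0.05). SE is the fold change over the root of F. CPM used TMM-scaled totals, and scaling by totals alone moved no member's group mean by more than 2.92%. Log2 CPM used a prior count of 2. Steps were tested on simulated counts. Alternatives were DESeq2 1.42.0, limma 3.58.1 voom, other scalings and filters, a block on identifiers, female libraries alone, and leaving out each library. Both F322 and both O libraries carried reads from Y-linked genes and the WT core pool was mixed.

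Exon lengths, joined over all annotated transcripts of a gene, and coordinates came from GENCODE M21, and promoters from RefSeq. Named genes are the 7 members, the 3 genes most like each, up to 4 called genes per list, and a fixed set of pathway genes. The members and lists were chosen with earlier results of these data known.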

Additional observations from a re-analysis of the deposited data

Results flagged for a closer look

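In KO core the S1pr5 level of F318 was 170.6 CPM, and the nearest other library, F219, had 36 CPM. The gap between them took 0.815 of the range of the 6 libraries, above the critical value for a library that stands apart. Of 21 combinations of a member and a group with 4 or more libraries, KO core S1pr5 was the 1 marked on the CPM scale. Under a normal spread chance alone marks about 1 in 20. F318 also had the highest Siglech level, 1432 CPM.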

How the results depend on the processing

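S1pr1, S1pr4 and Klf3 were called lower in core on average in all 17 fits that left out 1 library (-1.74 to -1.26, -1.11 to -0.90 and -1.37 to -1.16) and in 10 other settings, and S1pr4 within WT in 7 and 11. Ccr7 on average did not pass with the edgeR replicate block (-1.13, adjusted p = 0.0575), or in female libraries alone (-1.12, adjusted p = 0.117), and ranged from -1.48 to -0.51 with 1 library left out. Within WT, fits of the 2 WT groups alone gave S1pr1 -1.90 (adjusted p = 0.0624) and Klf3 -1.71 (adjusted p = 0.0684), and leaving out 1 library gave -2.32 to -1.37 and -1.92 to -1.54. Causes were not tested, though fits without WT rim H874 leave that group 1 library, assumed to vary like the others.

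The number of genes called depended on the tool. DESeq2 called 9 genes for KO against WT in core, 268 in rim, 35 between sites in KO, 1907 in WT, 2436 on average and 161 for the interaction. Genes called by limma voom with quality weights were 6 for KO against WT in rim, 2 between sites in KO and 139 in WT. Genes called in rim for KO against WT were 2 without a filter, 1 with a stricter filter and 8 with the limma replicate block, which called 2 between sites in KO. Between sites in WT, 91 were called from the WT groups alone and 313 in female libraries, and on average 345 in female libraries. The interaction held 4 genes called without a filter and 1 with the edgeR replicate block. Leaving out 1 library gave 0 to 26 genes called in rim, 68 to 795 between sites in WT, 189 to 1560 on average and 0 to 14 for the interaction, the lowest WT and averaged counts without WT rim H874. Without both WT rim H877 and KO core F318, chosen after the data were seen, 28 genes were called in rim and 10 for the interaction.

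Signs turned in members that passed no test. For KO against WT in core, Klf2 was 0.093 under voom weights and from -0.35 to 0.15 with 1 library left out, S1pr1 from -0.030 to 0.25 and Klf3 from -0.075 to 0.20. For KO against WT in rim, S1pr5 was 0.16 with the edgeR replicate block, 1.23 without H877 and F318, and from -1.77 to 1.25 with 1 library left out, and Ccr7 was from -1.255 to 0.67. Between sites in KO, S1pr5 was -0.24 under voom weights, -0.40 and -0.46 with the edgeR and limma replicate blocks, -0.97 without H877 and F318, and from -0.996 to 0.99 with 1 library left out. Between sites in WT, Cd69 was 0.34 without H874. For the interaction, Ccr7 was from -0.95 to 0.97 with 1 library left out and S1pr5 -0.46 without H877 and F318.

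The main fit used no block, because the labels do not say that an identifier is an animal. Core and rim libraries that share an identifier deviated together little, with r of 0.0721 for F322, 0.0449 for F86 and 0.0818 for O over genes. With the edgeR replicate block the genes called were 562 in WT and 983 on average. In the rim, F86 correlated best with KO core F318 (0.242) and O with F219 (0.193).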
